A study of Homo sapiens with 2 samples.

Results

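Cullins, F-box proteins and Kelch-like proteins build the cullin-RING ubiquitin ligases. Their transcripts were compared between HCT116 cells given 1 µM CB-5083 and HCT116 cells given the solvent DMSO, each for 8 h. HCT116 is an established human colorectal carcinoma line, and CB-5083 is a small-molecule inhibitor of p97 (gene VCP), an ATPase that pulls ubiquitin-tagged proteins out of membranes and complexes. The members are all genes of the series table whose symbol starts with CUL, FBXW, FBXL, FBXO or KLHL followed by a number, 104 of 21115 genes. They comprise 8 cullins, 10 FBXW, 18 FBXL, 37 FBXO and 31 KLHL genes. The name rule used no measured value, and it also took in 3 rows named as antisense RNAs or a pseudogene, FBXL19-AS1, FBXO22-AS1 and FBXW4P1.

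A cullin-RING ligase is a curved cullin scaffold that holds a RING protein at one end and an exchangeable substrate receptor at the other. CUL1 binds F-box proteins through the adaptor SKP1, in the complex called SCF, and CUL3 binds the BTB domain of Kelch-like proteins directly. F-box proteins are sorted by the part that recognises the substrate, with WD40 repeats in FBXW, leucine-rich repeats in FBXL and other folds in FBXO. Attachment of the small protein NEDD8 switches the cullin on, and p97 acts downstream by extracting several of the substrates these ligases tag.

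There was 1 library for CB-5083 and 1 for DMSO, so an effect of treatment and a difference between these libraries cannot be told apart, and no p-value is given. In bulk RNA, fewer cells of a kind and less RNA per cell cannot be told apart either. Levels are in CPM (estimated counts relative to the library's scaled total), from 31997660 estimated counts with CB-5083 and 29273684 with DMSO, scaled between libraries by the trimmed mean of M values (TMM). The log2 ratio sets CB-5083 over DMSO after 1 CPM was added to each, so low genes appear closer to 0 than they are. Scaling by library totals instead lowers every gene's log2 ratio by 0.34 before that addition, so most TMM ratios between 0 and 0.34 turn below 0 under it. A gene was tested, meaning set against a threshold of size and not of probability, when it reached 5 CPM in 1 library, and higher or lower means at least 2-fold on that scale. Folds are given without the pseudocount, with a 95% exact counting interval that covers counting error only. The epithelial marker EPCAM was at 501 CPM with CB-5083 and 433 CPM with DMSO. CDH1, also epithelial, was at 243 CPM with CB-5083 and 66.7 CPM with DMSO, so itself higher (3.65-fold, 3.48 to 3.83). The leukocyte gene PTPRC was listed at 0 in both libraries, as were the fibroblast genes COL1A2 and DCN. The fibroblast gene COL1A1 was at 3.48 CPM with CB-5083 and 2.52 CPM with DMSO.

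Most members did not pass the 2-fold threshold. Of 61 members tested, 4 were higher with CB-5083, 2 were lower and 55 were neither. The 6 members past 2-fold were 9.84% of those tested, against 12.1% of all 9543 genes tested. By direction, 7.22% of all genes tested were higher and 4.91% lower. The higher members were FBXO25, FBXO42, KLHL29 and FBXO8, and the lower ones KLHL13 and FBXL16. With library totals KLHL29 and FBXO8 were no longer past 2-fold. Then 2 members were higher and 7 lower, while over all genes 371 were higher and 994 lower, against 689 higher and 469 lower under TMM.

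**Figure D1:**
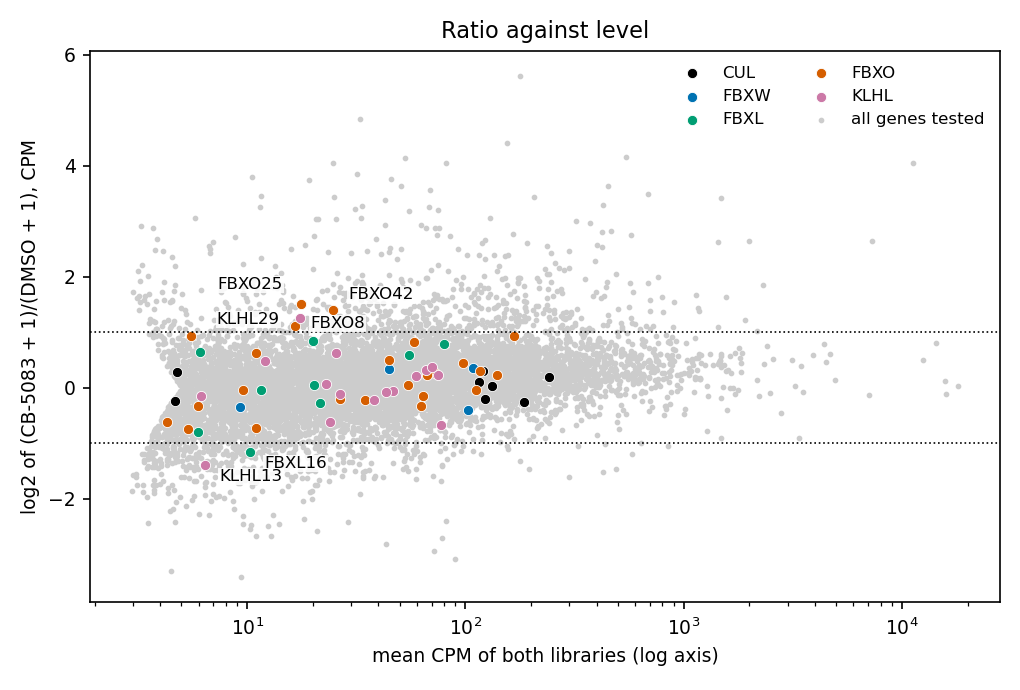
Log2 ratio of CB-5083 over DMSO (vertical axis) against the mean CPM of both libraries (log axis) for every gene that reached 5 CPM in 1 library, with members coloured by class, other genes in grey and dotted lines at 2-fold. The 6 labelled members past a line lie at mean levels under 25 CPM, and the members above 100 CPM all lie between the lines.

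Of the members tested, 40 lay within 1.5-fold (65.6%, against 70.1% of all genes tested). Past 1.5-fold were 13 members above and 8 below their DMSO level, where 29.9% of all genes tested passed it, 17.4% above and 12.5% below. The standard deviation of the log2 ratio was 0.584 over the 61 members and 0.691 over all genes tested. For 49 members (80.3% of those tested) the interval did not include a fold of 1, and for all genes tested that share was 80.8%. These intervals hold no variation between cultures.

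The share of members with a log2 ratio below 0 was smaller at higher levels, and so was that of all genes. Between 1 and 5 CPM on average, 13 of 19 members (68.4%) had a log2 ratio below 0, against 66.3% of all genes of that level. Between 5 and 20 CPM this was 10 of 17 (58.8% against 58%), and between 20 and 100 CPM 11 of 29 (37.9% against 40.2%). At 100 CPM or more it was 4 of 12 (33.3% against 21.6%).

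Promoters of the members were searched for motifs of stress and lysosomal programmes. Promoters, from RefSeq on GRCh38, were found for 84 members and cover 250 bases before to 50 after the start of the gene, and the 27305 promoters of that table served as background. Both strands were read. The ER stress element was found in no member promoter (0.0806% of all promoters). The unfolded protein response element TGACGTGG was in 1 (1.19% against 0.795%), the composite site of CHOP and ATF4 TTGCATCA in 1 (FBXO40, 1.19% against 0.923%) and the cAMP response element TGACGTCA in 2 (2.38% against 1.98%). The E-box CACGTG was in 7 (8.33% against 7.43%). None of the 5 motifs was in the promoters of FBXO42, FBXO8, KLHL29 or KLHL13, and those of FBXO25 and FBXL16 were not analysed here.

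The matches in FBXL20, FBXO34, FBXL5 and CUL5 are printed 5′ to 3′ along the gene, with the motif in capitals, to show where they stand. They are descriptions of sequence and not measured binding sites. FBXL20 (chr17:39402643-39402702, minus strand) and FBXO34 (chr14:55271323-55271382, plus strand) hold the cAMP response element. FBXL5 (chr4:15655445-15655504, minus strand) holds an E-box. In CUL5 (chr11:108008910-108008936, plus strand), an E-box and the unfolded protein response element overlap just after the start. All positions are on GRCh38.
FBXL20: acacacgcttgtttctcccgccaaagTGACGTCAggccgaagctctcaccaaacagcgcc
FBXO34: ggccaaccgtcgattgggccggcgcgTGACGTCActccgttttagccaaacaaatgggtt
FBXL5: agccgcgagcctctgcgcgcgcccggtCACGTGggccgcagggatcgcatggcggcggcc
CUL5: cctcgcgtCACGTGACGTGGccgcgga

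The scaffolds were the class with the narrowest range. All 8 cullins were tested and all 8 lay within 1.5-fold, as did 70.1% of all genes tested. Their log2 ratios ran from -0.25 to 0.30. The median was 0.07, against 0.04 over all genes with a mean of at least 1 CPM. With library totals the cullin median was -0.27 and that of all genes -0.28. CUL3, the scaffold of the Kelch-like ligases, was at 257 CPM with CB-5083 and 226 CPM with DMSO (1.14-fold, 1.10 to 1.17). CUL1, the scaffold of SCF, was at 114 CPM with CB-5083 and 132 CPM with DMSO (1.16-fold below, 1.10 to 1.21). The small differences of CUL3 and CUL1 ran in opposite directions under TMM, with log2 ratios of 0.18 and -0.21, but with library totals both were below 0, at -0.16 and -0.55.

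CUL4A and CUL4B, paralogous scaffolds that bind DDB1 and its receptors, also differed from each other. CUL4A was at 134 CPM with CB-5083 and 131 CPM with DMSO, with a counting interval of the fold from 0.977 to 1.07. CUL4B was at 170 CPM with CB-5083 and 202 CPM with DMSO (1.19-fold below, 1.15 to 1.24). The paralogs share sequence. The estimated counts of both held fractions, but so did those of CUL1, CUL2, CUL3 and CUL5.

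The scaffolds of the elongin-based ligases were a little above their DMSO level under TMM, and below it with library totals (log2 ratios of -0.04 for CUL5 and -0.23 for CUL2). CUL5, which serves SOCS-box receptors, was at 133 CPM with CB-5083 and 108 CPM with DMSO (1.23-fold, 1.18 to 1.29). CUL2, which serves VHL, was at 120 CPM with CB-5083 and 111 CPM with DMSO (1.08-fold, 1.03 to 1.13). CUL7, the partner of FBXW8, was at 5.35 CPM with CB-5083 and 4.22 CPM with DMSO, and CUL9, a cytoplasmic p53-binding cullin also called PARC, was at 4.22 CPM with CB-5083 and 5.16 CPM with DMSO. No cullin passed 2-fold under any of the 4 scalings, where 12.1% of all genes tested did under TMM.

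Divided by transcript length, which allows genes to be set side by side, CUL4A had the highest level of the cullins, at 56.7 CPM per kb with CB-5083 and 55.5 CPM per kb with DMSO. CUL3, CUL1 and CUL4B came next, at 38.2, 37.3 and 34.6 CPM per kb with CB-5083 and at 33.6, 43.1 and 41.3 CPM per kb with DMSO, so their order differed between the libraries. CUL2 had 28.1 and CUL5 21.0 CPM per kb with CB-5083, and 26 and 17.0 CPM per kb with DMSO. CUL7 and CUL9 stayed under 1 CPM per kb in both libraries. The length is that of the longest matched transcript, so genes expressed as shorter forms are understated, and those expressed as longer, unmatched forms overstated. CUL4A had the shortest length of the cullins, 2364 bases, and in CPM it stood below CUL3 and CUL4B in both libraries.

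**Figure D2:**
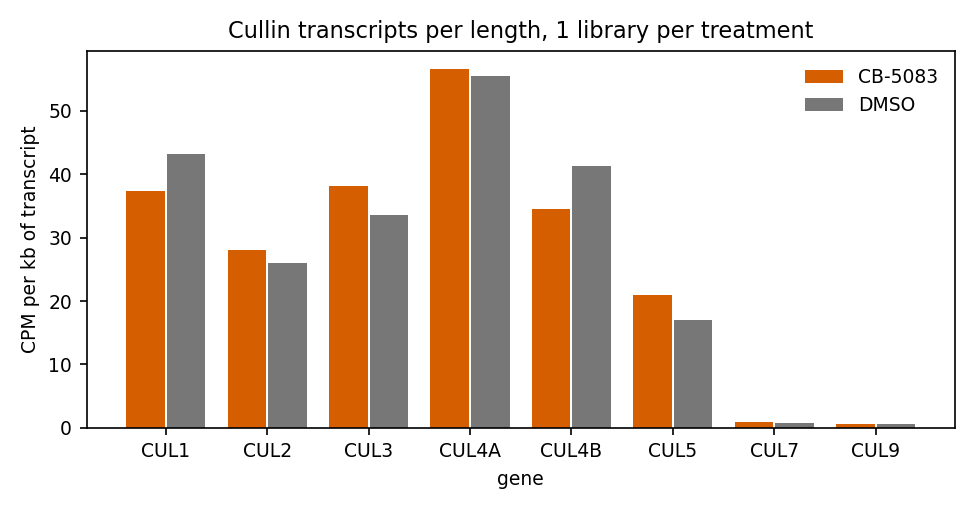
CPM per kb of the longest matched transcript for the 8 cullins, with CB-5083 (orange) left of DMSO (grey), 1 library each, so without error bars. CUL4A is highest in both libraries and CUL7 and CUL9 are near 0.

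Among the FBXW receptors none of the 4 tested passed 2-fold, and all 4 lay within 1.5-fold. Of all genes tested, 12.1% passed 2-fold and 70.1% lay within 1.5-fold, so a class of 4 would hold few outside. FBXW7, the receptor for cyclin E, MYC and JUN, was at 49.7 CPM with CB-5083 and 39.3 CPM with DMSO (1.27-fold, 1.17 to 1.37). FBXW11, a beta-TrCP protein that recognises phosphorylated beta-catenin and inhibitors of NF-kB, was at 122 CPM with CB-5083 and 94.5 CPM with DMSO (1.29-fold, 1.23 to 1.35). Its paralog BTRC was at 63.1 CPM with CB-5083 and 54.8 CPM with DMSO, so both beta-TrCP genes were slightly above their DMSO level under TMM, but with library totals their log2 ratios were 0.02 for FBXW11 and -0.14 for BTRC.

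FBXW2 was on the other side, at 88.4 CPM with CB-5083 and 117 CPM with DMSO (1.33-fold below, 1.26 to 1.40). FBXW8, the partner of CUL7, was at 8.07 CPM with CB-5083 and 10.5 CPM with DMSO. The other 6 FBXW rows were under 5 CPM in both libraries, and FBXW12, with 2 estimated counts with CB-5083 and none with DMSO, was at the detection floor. The median log2 ratio of the class was -0.05 over 6 genes with a mean of at least 1 CPM.

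The FBXL receptors were the class whose tested members spread most by standard deviation. Of 9 tested, 3 lay within 1.5-fold (33.3%, against 70.1% of all genes tested). The standard deviation of their log2 ratios was 0.714, near the 0.691 over all genes tested, and that of the cullins was 0.232. The range was wider in KLHL, from -1.39 to 1.26, than in FBXL, from -1.15 to 0.85. FBXL16, an F-box protein described as lacking CUL1 binding, was lower, at 6.02 CPM with CB-5083 and 14.6 CPM with DMSO (2.43-fold lower, 2.03 to 2.91). It lies on chromosome 16 from 742499 to 755825 in hg19, as the file gives it. With a pseudocount of 4 CPM its log2 ratio was -0.89, short of the threshold.

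FBXL18 was at 4.07 CPM with CB-5083 and 7.81 CPM with DMSO, and its log2 ratio of -0.80 was -1.08 with library totals. FBXL5 and FBXL20 lay on the other side, each short of 2-fold. FBXL5, the iron sensor that marks the iron regulatory protein IRP2 for degradation, was at 66.7 CPM with CB-5083 and 44.1 CPM with DMSO (1.51-fold, 1.41 to 1.62). FBXL20, known in mouse neurons for acting on the synaptic protein RIM1, was at 26.1 CPM with CB-5083 and 14.1 CPM with DMSO (1.86-fold, 1.65 to 2.09).

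Per length FBXL5 was at 19.7 CPM per kb with CB-5083 and 13.0 CPM per kb with DMSO. The class sum was 1.29 times as high with CB-5083, at 270 CPM against 210 CPM with DMSO, and the sum over all genes was 1.27 times as high on this scale. FBXL17, a receptor that checks how BTB proteins pair, was at 19.4 CPM with CB-5083 and 23.8 CPM with DMSO. FBXL4, a mitochondrial F-box protein, was at 20.7 CPM with CB-5083 and 20.1 CPM with DMSO.

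Of the 24 FBXO genes tested, 3 were higher, none lower and 21 neither. That put 12.5% past 2-fold, near the 12.1% of all genes tested (7.22% higher and 4.91% lower). FBXO42, also called JFK and known as a receptor for p53, was at 36.5 CPM with CB-5083 and 13.2 CPM with DMSO (2.77-fold, 2.47 to 3.10). Its gene lies on chromosome 1 from 16576558 to 16678948 in hg19. FBXO25, a nuclear F-box protein on chromosome 8 (356807 to 419875), was at 26.7 CPM with CB-5083 and 8.70 CPM with DMSO (3.07-fold, 2.67 to 3.52). Both stayed past 2-fold under each of the 3 other scalings, but the estimated counts of both held fractions.

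FBXO8, which pairs its F-box with a Sec7 domain of the kind that acts on ARF GTPases, was at 23.1 CPM with CB-5083 and 10.2 CPM with DMSO (2.27-fold, 1.99 to 2.60). It lies on chromosome 4 (175157809 to 175205402), its span overlaps that of CEP44 in the file, and reads of overlapping genes cannot be told apart unless counting used strand, which is not stated. FBXO8 fell short of the threshold under library totals (log2 ratio of 0.79) and under a pseudocount of 4 CPM (0.94).

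FBXO11, a receptor for BCL6 and for the CUL4 receptor CDT2, came close to the threshold. It was at 220 CPM with CB-5083 and 114 CPM with DMSO (1.92-fold, 1.85 to 2.0), and its span overlaps that of MSH6. FBXO38, a receptor for the immune checkpoint protein PD-1 in T cells, was at 74.6 CPM with CB-5083 and 41.9 CPM with DMSO (1.78-fold, 1.66 to 1.91). FBXO16 was at 7.53 CPM with CB-5083 and 3.50 CPM with DMSO, a 2.15-fold difference whose log2 ratio with the pseudocount was 0.92. The span of FBXO16 overlaps that of ZNF395, and its estimated counts held fractions.

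Per length, FBXO5, FBXO11 and FBXO7 led the class. FBXO5 is EMI1, the inhibitor of the anaphase-promoting complex, and was at 58.1 CPM per kb with CB-5083 and 47.1 CPM per kb with DMSO. FBXO11 was at 54.2 CPM per kb with CB-5083 and 28.2 CPM per kb with DMSO. FBXO7, mutated in an inherited parkinsonism, was at 51.4 CPM per kb with CB-5083 and 37.6 CPM per kb with DMSO. Thus FBXO11 stood nearer to FBXO5 in the CB-5083 library than in the DMSO library.

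FBXO22 and FBXO45 lay within 1.5-fold. FBXO22, a receptor for histone demethylases of the KDM4 family, was at 79.0 CPM with CB-5083 and 65.9 CPM with DMSO (1.2-fold, 1.13 to 1.27). FBXO45, which works with the ligase MYCBP2 in neurons, was at 152 CPM with CB-5083 and 129 CPM with DMSO (1.18-fold, 1.13 to 1.23). FBXO32, the muscle atrophy gene atrogin-1, was under 5 CPM in both libraries, at 3.27 CPM with CB-5083 and 1.67 CPM with DMSO.

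FBXO2, FBXO6, FBXO17, FBXO27 and FBXO44 form a subfamily with a shared C-terminal domain, of which FBXO2 and FBXO6 bind high-mannose glycans of misfolded glycoproteins retrotranslocated from the endoplasmic reticulum, a route that uses p97. All 5 were low, and 3 of them stayed under 5 CPM in both libraries, so only FBXO27 and FBXO44 were tested and neither passed 2-fold. This subfamily was grouped after its values were seen. FBXO44 was at 3.73 CPM with CB-5083 and 6.95 CPM with DMSO (1.86-fold below, 1.47 to 2.37). FBXO27 was at 3.19 CPM with CB-5083 and 5.44 CPM with DMSO (1.71-fold below, 1.31 to 2.21).

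FBXO17 was at 1.98 CPM with CB-5083 and 4.89 CPM with DMSO (2.47-fold below, 1.82 to 3.42), just under the filter. FBXO6 was at 2.93 CPM with CB-5083 and 4.25 CPM with DMSO, and FBXO2 at 3.20 CPM with CB-5083 and 3.06 CPM with DMSO. Summed, the 5 genes had 15.0 CPM with CB-5083 and 24.6 CPM with DMSO, with 4 of 5 log2 ratios below 0 under TMM and all 5 with library totals. Of all genes under TMM, 66.3% with a mean of 1 to 5 CPM and 58% with 5 to 20 CPM were below 0. FBXO44, at a mean of 5.34 CPM, falls in the upper range and the others in the lower. The count of 4 of 5 is thus near the background. With library totals that share of all genes was not computed. The median log2 ratio of the 5 genes was -0.62 under TMM, against -0.22 for all genes of 1 to 5 CPM. FBXO17 and FBXO44 were past 2-fold with library totals, and FBXO17 with upper quartile scaling. FBXO2 and FBXO44 overlap each other on chromosome 1, where FBXO6 follows at 11724149 to 11734409, and FBXO17 overlaps SARS2 on chromosome 19, so FBXO2, FBXO17 and FBXO44 are uncertain without strand.

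**Figure D3:**
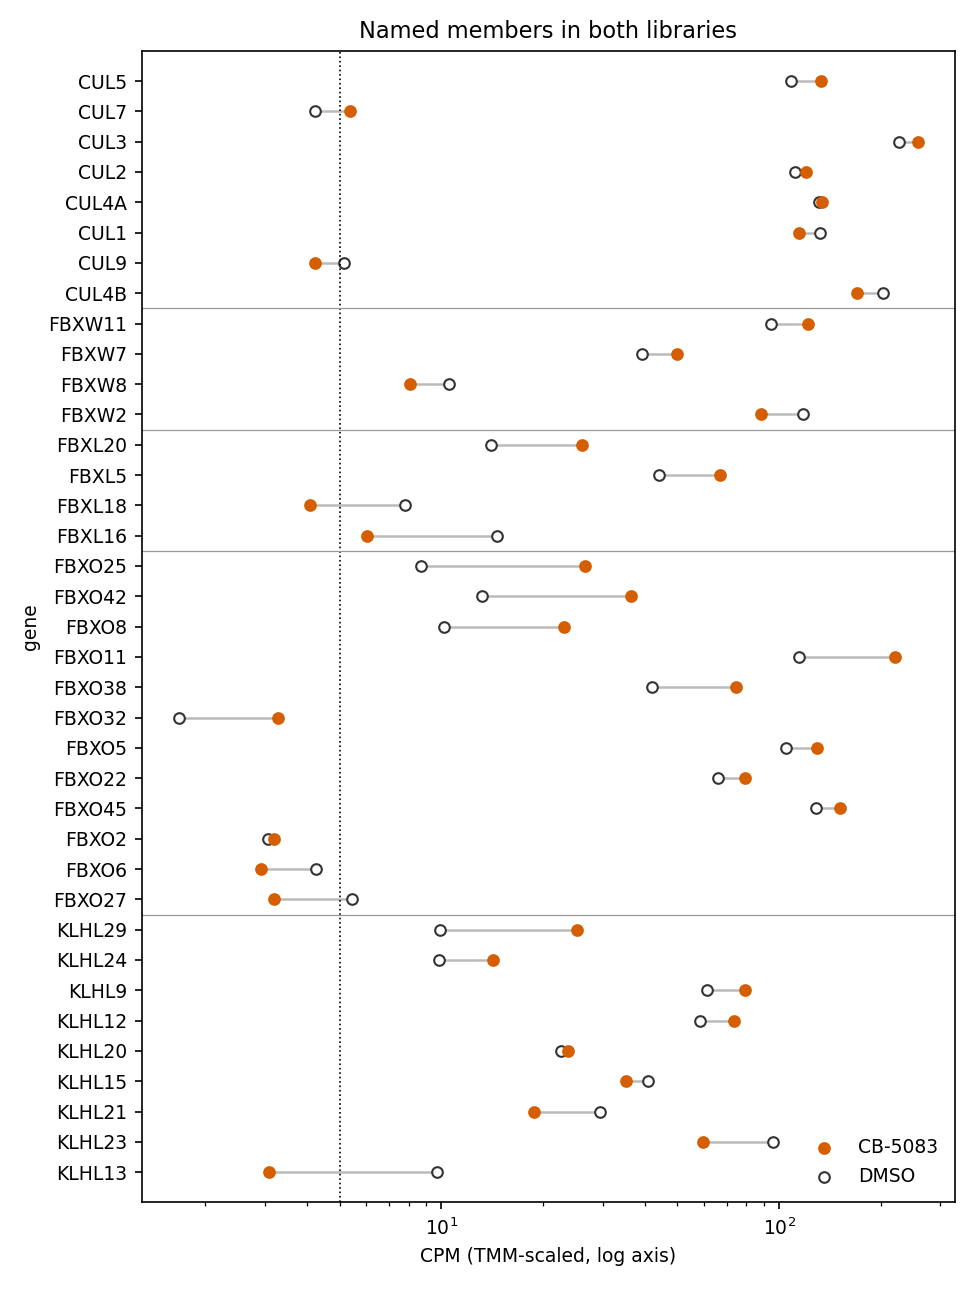
Level of 37 named members in CPM (log axis) with CB-5083 (filled) and DMSO (open), 1 library each, grouped from the top as CUL, FBXW, FBXL, FBXO and KLHL and ordered by log2 ratio within each. The dotted line marks 5 CPM, and the widest gaps are those of FBXO25, FBXO42, KLHL13 and KLHL29.

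Of the 16 KLHL genes tested 1 was higher, 1 lower and 14 neither, and 11 lay within 1.5-fold. Thus 12.5% were past 2-fold and 68.8% within 1.5-fold, near the 12.1% and 70.1% of all genes tested. KLHL29 was at 25.1 CPM with CB-5083 and 9.89 CPM with DMSO (2.54-fold, 2.22 to 2.90). It lies on chromosome 2 from 23608297 to 23931483, its estimated counts were whole, and its log2 ratio was 0.94 with library totals. KLHL13 was at 3.10 CPM with CB-5083 and 9.71 CPM with DMSO (3.14-fold lower, 2.47 to 4.02). It lies on chromosome X from 117031775 to 117251303 in hg19, its estimated counts were whole, and with a pseudocount of 4 CPM its log2 ratio was -0.95.

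KLHL13 works with KLHL9 and CUL3, and separately KLHL21 does so, to move the mitotic kinase Aurora B off chromosomes and onto the spindle. KLHL9 was at 79.5 CPM with CB-5083 and 61.3 CPM with DMSO (1.30-fold, 1.22 to 1.38). KLHL21 was at 18.8 CPM with CB-5083 and 29.4 CPM with DMSO (1.57-fold below, 1.41 to 1.74). These 3 receptors of a shared substrate thus had log2 ratios of -1.39, 0.37 and -0.62 for KLHL13, KLHL9 and KLHL21.

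KLHL12, which with CUL3 modifies SEC31 in the assembly of large COPII coats, was at 73.2 CPM with CB-5083 and 58.4 CPM with DMSO (1.25-fold, 1.18 to 1.33). KLHL20, a receptor for the kinase DAPK and for PML, was at 23.6 CPM with CB-5083 and 22.6 CPM with DMSO, with a counting interval of the fold from 0.942 to 1.16. KLHL24, which regulates keratin turnover in skin, was at 14.2 CPM with CB-5083 and 9.86 CPM with DMSO (1.44-fold, 1.24 to 1.67). KLHL12 and KLHL20 both fall between the lowest start and the highest end listed for SRGAP2. That range can join separate loci, so it need not mean shared bases.

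KLHL23 was at 59.5 CPM with CB-5083 and 96.0 CPM with DMSO (1.61-fold below, 1.52 to 1.71). With library totals its log2 ratio was -1.02, past the threshold, and its span overlaps that of the read-through row PHOSPHO2-KLHL23. KLHL15, a receptor for a regulatory subunit of the phosphatase PP2A, was at 35.2 CPM with CB-5083 and 41.0 CPM with DMSO (1.16-fold below, 1.07 to 1.26). The class median was -0.08 over 19 genes with a mean of at least 1 CPM, and -0.42 with library totals. For all genes these medians were 0.04 and -0.28. Under TMM 8 of the 16 tested genes had a log2 ratio above 0 and 8 below it.

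The remaining members were too low for a call. In all 43 members were under 5 CPM in both libraries, of which 7 were listed at 0 in both, among them FBXL7, FBXL8, KLHL4 and KLHL35. A 0 allows up to 0.106 CPM with CB-5083 and 0.091 CPM with DMSO. KLHL31, known from muscle, had 9 estimated counts with CB-5083 and 75 with DMSO, which is 0.317 CPM against 2.28 CPM. FBXL19-AS1 had 0.420 CPM with CB-5083 and 1.71 CPM with DMSO, while FBXL19, whose span it overlaps, had 1.62 CPM with CB-5083 and 3.0 CPM with DMSO. FBXO43, the meiotic relative of FBXO5 called EMI2, had 0.0873 CPM with CB-5083 and 0.784 CPM with DMSO. KLHL31, FBXL19-AS1 and FBXO43 were named after their values were seen.

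Partners of the cullin scaffolds and genes of NEDD8 conjugation and removal were taken as separate lists, chosen with earlier results of these data known. None of 11 tested scaffold partners (12 with library totals) and none of 21 tested genes of NEDD8 conjugation and removal passed 2-fold, under TMM or with library totals. Of all genes tested under TMM, 12.1% passed it, so lists this small would hold few such genes at that share. The medians of these lists were 0.10 and 0.24 under TMM, against 0.04 for all genes. With library totals they were -0.24 and -0.10, against -0.28 for all genes. SKP1, which links F-box proteins to CUL1, was at 406 CPM with CB-5083 and 389 CPM with DMSO. CAND1, which exchanges the receptors on a cullin, was at 303 CPM with CB-5083 and 320 CPM with DMSO. ARIH1, a ligase that works on active cullin complexes, had the largest ratio of its list, at 254 CPM with CB-5083 and 139 CPM with DMSO (1.82-fold, 1.76 to 1.89). ARIH2, a relative of ARIH1 that works with CUL5, was at 136 CPM with CB-5083 and 87.0 CPM with DMSO.

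In the NEDD8 list the largest ratios were those of DCUN1D2 and UBE2M, which promote and carry out the transfer of NEDD8 to cullins. DCUN1D2 was at 34.4 CPM with CB-5083 and 22.1 CPM with DMSO (1.56-fold, 1.41 to 1.71). UBE2M was at 36.2 CPM with CB-5083 and 24 CPM with DMSO (1.51-fold, 1.37 to 1.66).

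F-box, Kelch and BTB receptors whose symbols fall outside the name rule gave 1 higher, 3 lower and 19 neither of 23 tested, where 7.22% of all genes tested were higher and 4.91% lower. Their median log2 ratio was -0.41 over 26 genes with a mean of at least 1 CPM, against 0.04 for all genes. The list was chosen with earlier results of these data known, so these values describe it and are no independent evidence. With library totals 8 were lower, none higher, and the median was -0.72, while all genes gave 371 higher, 994 lower and a median of -0.28. SKP2, the F-box receptor that marks the cell cycle inhibitor p27 for degradation, was at 28.3 CPM with CB-5083 and 91.1 CPM with DMSO (3.22-fold lower, 2.97 to 3.48). ENC1, a Kelch protein, was at 28.5 CPM with CB-5083 and 78.6 CPM with DMSO (2.76-fold lower, 2.55 to 2.99).

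KBTBD7, a BTB and Kelch protein that acts with CUL3, was at 3.01 CPM with CB-5083 and 7.90 CPM with DMSO (2.62-fold lower, 2.04 to 3.37). TNFAIP1, a BTB adaptor of CUL3 for the GTPase RhoA, was the higher one, at 58.3 CPM with CB-5083 and 28.1 CPM with DMSO (2.08-fold, 1.92 to 2.25), although upper quartile scaling (log2 ratio of 0.94) and library totals (0.70) both left it short of the threshold. SKP2, ENC1 and KBTBD7 stayed past 2-fold under each of the 3 other scalings.

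Receptors of CUL2, CUL4 and CUL5 gave 1 higher, 1 lower and 40 neither of 42 tested. That put 4.76% past 2-fold, against 12.1% of all genes tested under TMM. Their median was 0.11 under TMM and -0.14 with library totals, against 0.04 and -0.28 for all genes. ASB1, a SOCS-box protein, was at 54.1 CPM with CB-5083 and 26.4 CPM with DMSO (2.05-fold, 1.89 to 2.23), and its log2 ratio fell short of the threshold at 0.68 under library totals and 0.92 under upper quartile scaling. ASB13, of the same family, was at 4.36 CPM with CB-5083 and 9.98 CPM with DMSO (2.29-fold lower, 1.86 to 2.84).

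**Figure D4:**
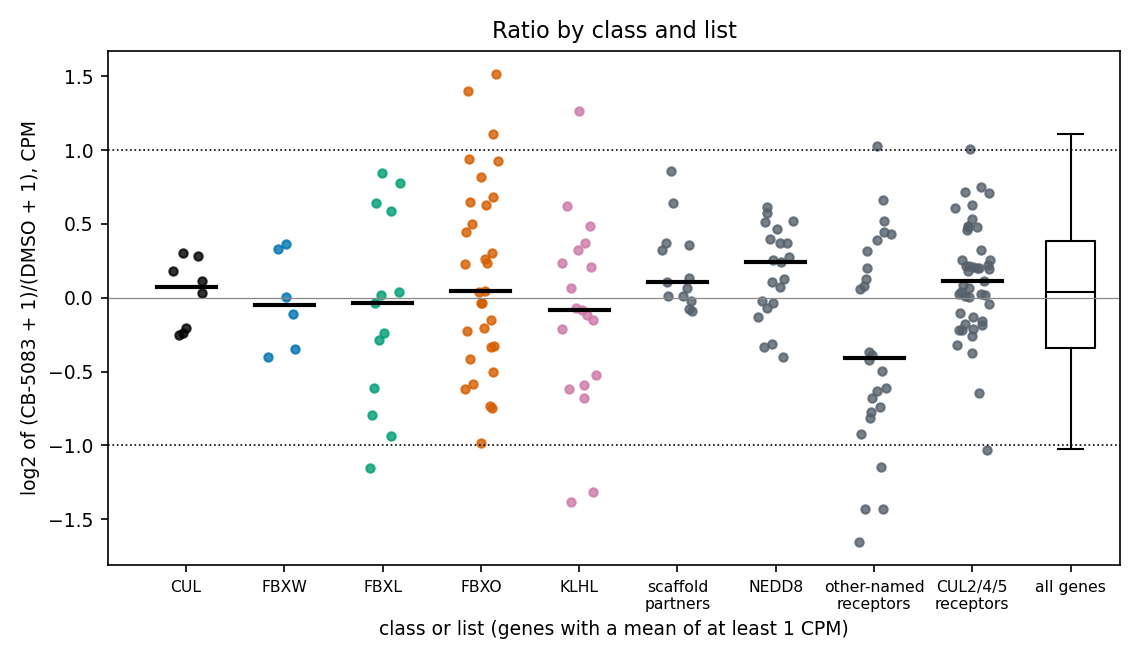
Log2 ratio of CB-5083 over DMSO for each gene with a mean of at least 1 CPM (points) by class and by list, with black bars at the medians and dotted lines at 2-fold. The box for all genes spans the quartiles and its whiskers the central 90%. Cullins lie between -0.25 and 0.30, and the median of the other-named receptors is -0.41. The lists were chosen with earlier results of these data known.

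Of the genes whose promoter sequence is printed, FBXO34 was at 52.8 CPM with CB-5083 and 37.0 CPM with DMSO (1.42-fold, 1.32 to 1.54). FBXO34, FBXL20, FBXL5 and CUL5 were all short of 2-fold. Over the 61 members tested, the log2 ratio had a Spearman correlation of 0.08 with transcript length and of -0.06 with the G and C content of the promoter (51 members), as a description across genes of the same 2 libraries.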

How the data were processed

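RNA was measured in HCT116 cells with 1 library per treatment. Libraries came from a stranded mRNA kit, per the labels' protocols. RSEM 1.2.0 and the hg19 build stand in the submitters' processing notes. The aligner and strand use in counting were not given in the sources used here.

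In the deposited columns, which are headed as counts, the signal is an estimated count after scaling by the authors, library by library. Read from the values, their 75th percentile over 21115 genes is 999.89 with CB-5083 and 999.73 with DMSO. Dividing by the value of 1 estimated count in each library, 1.1752 and 1.079, gave 31997660 and 29273684 estimated counts. 61 of 104 members held fractions in a library (tolerance 0.02), as RSEM gives for reads it shares out, so no count test was run. A span runs from the lowest start to the highest end listed for a gene, so it can join separate loci. By that measure the spans of 40 members overlap that of another listed gene, among them CUL7 with KLC4 and FBXO34 with ATG14. The 40 may include overlaps without shared bases, as with SRGAP2 over KLHL12 and KLHL20, or SNORA79 over FBXO33, KLHL28 and FBXO34. Not every such overlap is named in the results.

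CPM used TMM factors of 0.8883 (CB-5083) and 1.1258 (DMSO), computed with trims of 30% and 5%. Intervals are 95% exact (Clopper-Pearson) and cover counting error only. Depth limits precision: a 0 allows 3 counts, 0.106 CPM with CB-5083 and 0.091 CPM with DMSO. With 1 library per group no test was possible.

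The genes named are all cullins, members past 2-fold, the 4 largest ratios and the highest level per class, a set list of well studied receptors, and from the other lists those past 2-fold and the 2 largest ratios. Other genes (for example BTRC, SKP1, CAND1, FBXL4, FBXL17, FBXO7, FBXO16, FBXO17, FBXO34, FBXO44) were added after their values were seen. 1 gene the rule names is not reported here. The members and lists were chosen with earlier results of these data known. Lengths are of the longest GENCODE 29 transcript matched by RefSeq accession (99 of 104 members). Scripts were checked on simulated counts. Python 3.11.15, numpy 2.4.6, pandas 2.3.3 and scipy 1.17.1 were used.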

Additional observations from a re-analysis of the deposited data

How the results depend on the processing

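With library totals, members higher and lower were 2 and 7, all genes 371 and 994, and 4 of the 6 members past 2-fold in the report were still past it. Medians were then -0.27 (cullins), -0.27 (FBXW), -0.35 (FBXL), -0.21 (FBXO), -0.42 (KLHL), -0.31 (all members) and -0.28 (all genes). A pseudocount of 4 CPM left 0 lower members and 236 lower genes, and FBXO8 was no longer past 2-fold. A filter of 10 CPM left 1 lower member and gave medians of 0.26 (FBXO), 0.14 (KLHL), 0.20 (all members) and 0.14 (all genes). A threshold of 1.5-fold gave 13 higher and 8 lower members, and 1660 and 1195 genes (29.9% of those tested). Adding F-box and Kelch genes of other names gave 5 lower members and an FBXL median of -0.14. Without members of fractional counts, an alternative added after seeing the data, 2 were higher and the medians were 0.17 (FBXW) and -0.53 (KLHL). Of 342 values of single named genes under alternatives 325 kept their side of the threshold, 6 lost the call, 11 gained it and none changed sign after a call. This tally is partly fixed in advance. A change of filter leaves each log2 ratio as it was, and a threshold of 1.5-fold cannot remove a call. Of the 6 members past 2-fold in the report, 3 remained past it with a pseudocount of 4 CPM. Medians with filters of 1 CPM, 10 CPM or none used that filter in place of the mean of 1 CPM. No paired analysis was possible because each treatment was 1 library, and for the same reason none could be left out. Genes under 5 CPM are limited by depth.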
